A study of Mus musculus with 12 samples.

Results

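The genes described here are 10 genes of haematopoietic stem and progenitor cells, chosen by name from the 34745 genes of the deposited table. Earlier results of these data were known when they were chosen. Each of them was found in the table once. Kit, Cd34, Flt3 and Procr code for proteins of the cell surface, and Meis1, Mecom, Hlf, Hoxa9, Myb and Gata2 code for transcription factors. Whole marrow of the femur was taken from 12 male ICR mice, an outbred stock without engineered alleles, 3 in each of 4 groups, and its RNA was sequenced. The normal group received saline. The model group received saline by mouth and cyclophosphamide, an alkylating agent that damages dividing cells, at 80 mg/kg/day by intraperitoneal injection on days 5 to 7. Mice of the QJSB group were given this cyclophosphamide and the Qi-Jing-Sheng-Bai granule, a herbal preparation, at 3 g/kg/day by mouth for 1 week, and the leucogen group received it with leucogen, a drug used against low white cell counts, at 20 mg/kg/day for 1 week. The marrow was not sorted, so a change in cells of a type and a change in RNA per cell cannot be told apart here. All values are also shares of the reads of a library, so a gene can rise in them while its cells become fewer. The paper reports fewer nucleated marrow cells and less colony formation after cyclophosphamide.

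Blood cells arise from a small pool of haematopoietic stem cells, which pass through multipotent and lineage-restricted progenitors before they mature. KIT, the receptor of stem cell factor, is carried by stem cells, by most early progenitors and by mast cells. FLT3, the receptor of FLT3 ligand, marks multipotent and lymphoid-primed progenitors and supports dendritic cells. CD34 is a sialomucin of progenitors and of endothelium, and PROCR, the receptor of protein C, is among the surface markers used to enrich stem cells in mouse. Endothelium was listed here as also sharing Procr, Mecom and Meis1. MECOM and HLF are transcription factors of the stem cell itself, and HOXA9 and MEIS1 form complexes on DNA with PBX proteins. MYB is needed by dividing progenitors of all lineages, and GATA2 by stem cells, mast cells and the early erythroid and megakaryocytic lineages.

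Depth and marrow composition touch all values below. Library totals ran from 11172547 to 18545198 counts, and the 10 genes together took 0.0630% to 0.123% of them. Summed markers of promyelocytes, the granule-forming neutrophil precursors, ran from 904 to 1130 CPM (read counts scaled to a library of fixed size) in normal and from 6920 to 9870 in model, while those of erythroid progenitors ran from 6140 to 6460 and from 206 to 456. Markers of erythroid, early B, promyelocytic and stromal cells were all detected in normal marrow. The libraries model 1 and QJSB 1 stood apart: their stromal markers summed to 517 and 605 CPM, against 142 to 182 in the other 7 libraries of mice given cyclophosphamide, and their late neutrophil markers summed to 4810 and 7340 CPM, against 11900 to 58700 in those 7. Col1a1 alone held 305 CPM of the stromal sum in model 1 and 424 CPM in QJSB 1. Main results that rest on these libraries are also given without them. The deposited columns were matched to the groups by the meaning of their headings and, for QJSB, by elimination.

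The promoters of the genes that moved most are shown first, as the 250 bases before the start site given by RefSeq for GRCm38.p6. Flt3 and Hoxa9 had the largest differences between model and normal, Hlf was higher than in normal in every group given cyclophosphamide, and Gata2 was the gene of the 10 that was lower than in normal in a drug group. Flt3 is at chr5:147330741-147400489 on the minus strand, Hoxa9 at chr6:52223100-52231089 on the minus strand, Hlf at chr11:90336536-90390895 on the minus strand and Gata2 at chr6:88193891-88207032 on the plus strand, all in GRCm38. The Hoxa9 window, chr6:52227371-52227620, is within the span of the gene, since longer transcripts start further upstream. The other windows are chr5:147400490-147400739 for Flt3, chr11:90390918-90391167 for Hlf and chr6:88193641-88193890 for the more upstream of the 2 Gata2 starts. None of these 4 windows overlapped an annotated exon of GENCODE M21. Capitals mark matches on either strand to the E-box CANNTG or to the ETS letters CCGGAA.
Flt3: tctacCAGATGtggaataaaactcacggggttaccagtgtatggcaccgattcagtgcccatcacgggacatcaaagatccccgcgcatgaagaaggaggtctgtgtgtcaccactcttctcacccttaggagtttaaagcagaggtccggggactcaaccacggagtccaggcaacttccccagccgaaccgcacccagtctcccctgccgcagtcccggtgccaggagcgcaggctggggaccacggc
Hoxa9: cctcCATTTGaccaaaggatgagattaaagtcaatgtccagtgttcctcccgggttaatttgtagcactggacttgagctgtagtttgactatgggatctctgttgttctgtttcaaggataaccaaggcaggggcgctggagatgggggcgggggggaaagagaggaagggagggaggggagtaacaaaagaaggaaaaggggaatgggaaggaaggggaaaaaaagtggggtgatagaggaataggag
Hlf: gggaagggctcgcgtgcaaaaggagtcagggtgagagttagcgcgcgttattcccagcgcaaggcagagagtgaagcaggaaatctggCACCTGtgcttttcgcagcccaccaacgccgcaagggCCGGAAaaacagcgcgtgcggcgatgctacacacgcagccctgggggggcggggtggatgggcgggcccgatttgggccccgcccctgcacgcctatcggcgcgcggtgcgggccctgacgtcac
Gata2: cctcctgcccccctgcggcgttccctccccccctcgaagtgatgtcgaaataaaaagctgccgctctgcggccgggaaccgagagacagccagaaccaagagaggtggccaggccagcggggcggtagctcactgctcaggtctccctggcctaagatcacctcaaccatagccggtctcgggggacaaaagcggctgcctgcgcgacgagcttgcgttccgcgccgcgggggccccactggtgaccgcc
The E-box letters were in 6 of the 13 windows of the 10 genes (46.2%; Flt3, Hlf, Hoxa9, Mecom, Meis1 and Procr), against 66.2% of all 32851 promoter windows of the same length. The 13 windows are not separate, since the 2 Kit windows, without a match, overlap almost wholly. By gene, the E-box letters were in 6 of 10. The ETS letters were in windows of Hlf and Meis1, or 15.4% of the 13, against 12.03% of all windows. The letters TGACAG, read as a MEIS motif, were in 1 window, of Mecom, against 15.9% of all. The GATA letters AGATAA were in none of the 13 windows and in 9.99% of all. No motif overlapped another in the windows printed.

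Myb had the highest level per transcript length in every group and Mecom the lowest. In FPKM, fragments scaled to transcript length and library size as computed by the authors, the mean in normal was 90.6 ± 6.34 for Myb (SD, n = 3), 5.95 ± 0.457 for Kit, 4.79 ± 1.08 for Flt3, 2.28 ± 0.278 for Cd34, 0.859 ± 0.177 for Meis1, 0.819 ± 0.287 for Gata2, 0.682 ± 0.133 for Hoxa9, 0.645 ± 0.177 for Hlf, 0.176 ± 0.0362 for Procr and 0.0439 ± 0.0133 for Mecom. The ranges over the 3 mice overlapped between Kit and Flt3, and between neighbours in the run from Meis1 to Hlf, so their order was not separated by the spread. In model the order became Myb, Flt3, Kit, Cd34 and Hoxa9, with Flt3 at 19.9 ± 10.0 FPKM. The QJSB order was the same as that of model for all 10 genes, and Cd34, Hoxa9, Hlf, Meis1 and Gata2 each overlapped the next below. In leucogen, Kit at 6.44 ± 0.432 FPKM stood again above Flt3 at 4.76 ± 0.108, without overlap. The FPKM of the 10 genes correspond to lengths 1.45 to 3.92 times their longest annotated transcript. With CPM divided by that transcript's length, the order was unchanged in normal, QJSB and leucogen, and in model Meis1 and Hlf changed places. Procr had 7 to 31 counts in a library and Mecom 9 to 55, so their values carry large counting error. In GENCODE M21, Meis1 overlaps 3 and Mecom 5 other gene models on its own strand, Hoxa9 overlaps Mir196b, and Cd34, Flt3, Meis1, Mecom and Myb overlap models on the other strand. How the authors' counting treated such reads is not given in the sources used here.

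**Figure D1:**
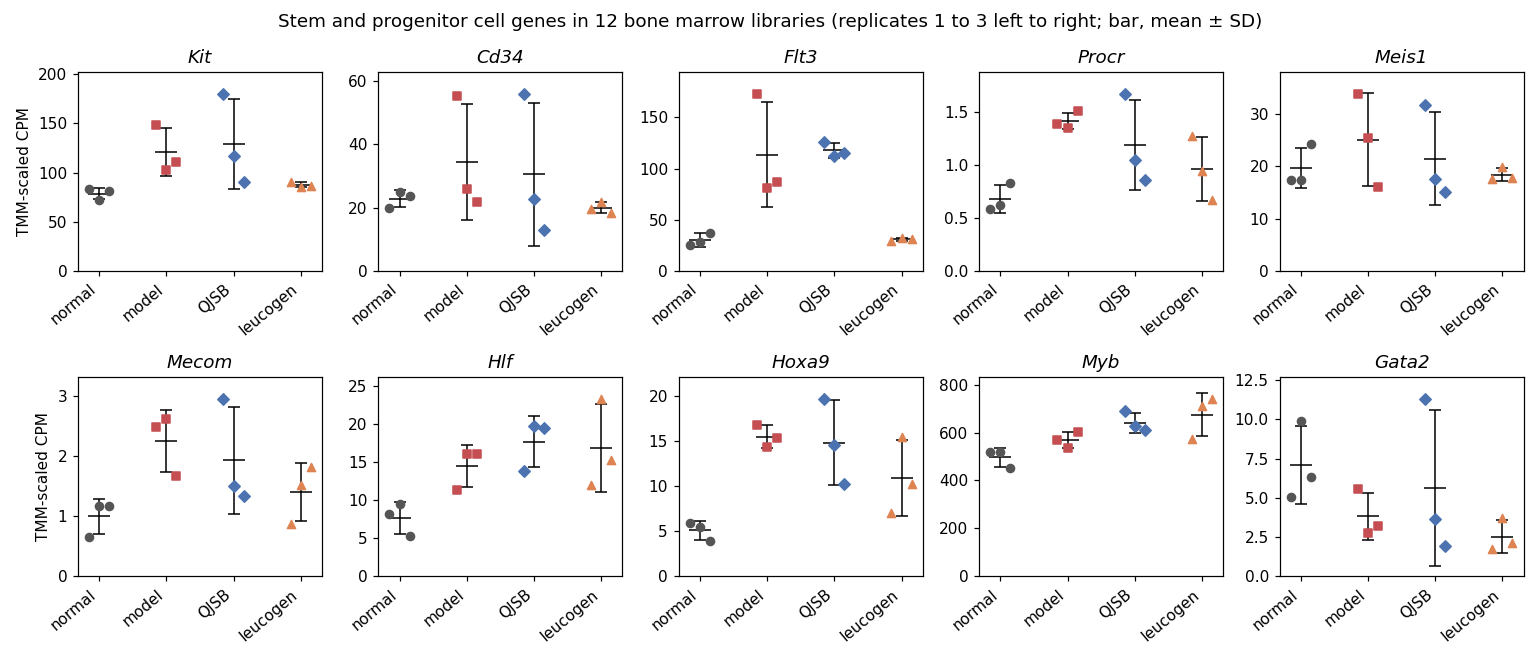
Level of each of the 10 genes in TMM-scaled CPM (vertical axes, linear, from 0) in the 12 libraries, by group; points are mice, replicates 1 to 3 from left to right, and bars give the mean ± SD. Flt3 was between 80.9 and 173 in model and between 112.5 and 126 in QJSB, and between 25.0 and 37.5 in normal and leucogen.

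The first question was what cyclophosphamide alone did to these genes in the marrow. Of the 10, 6 were higher in model than in normal (Flt3, Hoxa9, Mecom, Procr, Hlf and Kit) and 0 were lower, where a gene was called at a Benjamini-Hochberg adjusted p under 0.05 and a fold change over 1.5 in either direction. Among all 14752 genes tested, 16.1% were called higher and 19.0% lower. At the study's cutoff, the same fold with an unadjusted P under 0.05, applied here to edgeR's P values, Gata2 was added as lower. At the adjusted cutoff, DESeq2 called 4 higher and 0 lower. The model and normal libraries did not overlap for 7 of the 10 genes, against 55.5% of all genes. The median log2 fold change was 0.77 over the 10 genes and 0.02 over all genes tested. Since the 10 genes were chosen with earlier results of these data known, these contrasts with all genes are descriptive and do not test the set. Without the library model 1, 4 of the 10 passed (Flt3, Hlf and Hoxa9 higher, Gata2 lower).

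Flt3 had the widest separation of the surface receptors. Its level was 25.0, 27.8 and 37.5 CPM in the normal libraries 1 to 3 and 173, 80.9 and 86.9 CPM in the model libraries. Every model mouse was above every normal mouse, and model 1 was far above the other model mice. The fitted difference was a 3.78-fold rise (log2 1.92 ± 0.32, SE, n = 3 per group, adjusted p = 0.00258), and 1.49 on the log2 scale without model 1 (adjusted p = 0.000644). Summed dendritic cell markers, of cells that also carry FLT3, were 194 to 251 CPM in normal and 99.8 to 196 in model, with 4 of 8 tested members lower and 0 higher.

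Kit was 82.8, 71.8 and 81.3 CPM in normal and 148, 103 and 111 CPM in model. The groups did not overlap, and the rise was 1.54-fold (log2 0.62 ± 0.16, adjusted p = 0.0145). Without model 1 the log2 Kit difference was 0.46, under the fold cutoff, and without normal 2 the adjusted p was 0.0684. Summed markers of mast cells, which bear Kit, and of basophils were 276 to 334 CPM in normal and 84.6 to 123 in model. Tpsb2, a mast cell tryptase, had 0 counts in model, but it was near the floor in normal too, at a mean of 0.464 CPM. Promyelocytes, listed here as sharing Kit, Myb and Hoxa9, went the other way. Their summed markers were 904 to 1130 CPM in normal and 6920 to 9870 in model. The part of any of these cells in the Kit value was not tested.

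Procr was 0.580, 0.618 and 0.828 CPM in normal and 1.39, 1.35 and 1.50 CPM in model, from 8 to 12 and from 19 to 26 counts. The model mice lay close together and above all normal mice, with a rise of 2.08-fold (log2 1.06 ± 0.35, adjusted p = 0.0391). That call was lost whenever any 1 library was left out, with adjusted p of 0.0577 to 0.144, and with DESeq2 (adjusted p = 0.155). Markers of endothelium, which shares Procr and Mecom, were called higher in 4 of 10, against 16.1% of all genes. Their part in the Procr and Mecom values was not tested.

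Cd34 did not pass the test. It was 19.8, 24.9 and 23.7 CPM in normal and 55.4, 26.0 and 21.9 CPM in model, with model 1 far above all other mice of these groups and model 3 inside the normal range. The log2 difference was 0.60 ± 0.34 (95% interval -0.19 to 1.38, adjusted p = 0.194), and without model 1 it was 0.09. Summed stromal markers were 271 to 281 CPM in normal and 158 to 517 in model, and summed endothelial markers 186 to 273 and 163 to 297. The highest stromal and endothelial sums in model were both in model 1, and their part in the Cd34 value was not tested.

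Among the transcription factors, Hoxa9 had the smallest adjusted p of the 10 genes. It was 5.87, 5.49 and 3.93 CPM in normal and 16.8, 14.3 and 15.4 CPM in model. The model mice were within 1.17-fold of each other and all above normal, with a rise of 3.05-fold (log2 1.61 ± 0.21, adjusted p = 0.000562). Hoxa9 and Flt3 were called under every alternative tried for this comparison. Promyelocytes were listed as also sharing Hoxa9, and the part of their higher marker sum in its value was not tested.

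Hlf and Mecom, the factors tied most closely to the stem cell, were also higher. Hlf was 8.12, 9.47 and 5.31 CPM in normal and 11.3, 16.0 and 16.1 CPM in model, a rise of 1.90-fold (log2 0.93 ± 0.26, adjusted p = 0.0206), here with model 1 as the lowest of its group. Without normal 1, normal 3 or model 3 the Hlf call was lost, at adjusted p of 0.0524 to 0.0612. Mecom was 0.652, 1.17 and 1.17 CPM in normal and 2.48, 2.62 and 1.67 CPM in model, a rise of 2.26-fold (log2 1.17 ± 0.37, adjusted p = 0.0339). Leaving out any library other than model 3 ended the Mecom call, with adjusted p of 0.0673 to 0.123, as did DESeq2 (adjusted p = 0.0617).

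Meis1, Myb and Gata2 did not pass. Meis1 was 17.4, 17.4 and 24.1 CPM in normal and 33.8, 25.3 and 16.1 CPM in model, a log2 difference of 0.35 (95% interval -0.26 to 0.97, adjusted p = 0.325). Without model 1 the Meis1 difference was 0.09. Myb was 518, 518 and 452 CPM in normal and 568, 534 and 604 CPM in model, which did not overlap but differed by only 0.20 on the log2 scale (interval -0.08 to 0.48, adjusted p = 0.221). Gata2 was 5.07, 9.88 and 6.35 CPM in normal and 5.54, 2.77 and 3.17 CPM in model, a log2 difference of -0.88 (interval -1.68 to -0.08, adjusted p = 0.0738). Without model 1, the highest of the model mice, the Gata2 difference was -1.24 and passed (adjusted p = 0.0215). Erythroid progenitor markers, of a lineage that uses GATA2 early, fell in 9 of 9 tested members, among them Klf1 (log2 -5.54) and Gata1 (-3.98), and mast cell and basophil markers fell in 6 of 8, among them Cpa3 (-1.36). Another of these 8, Mitf, a transcription factor of mast cells and melanocytes, rose (log2 0.60, adjusted p = 0.0240).

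**Figure D2:**
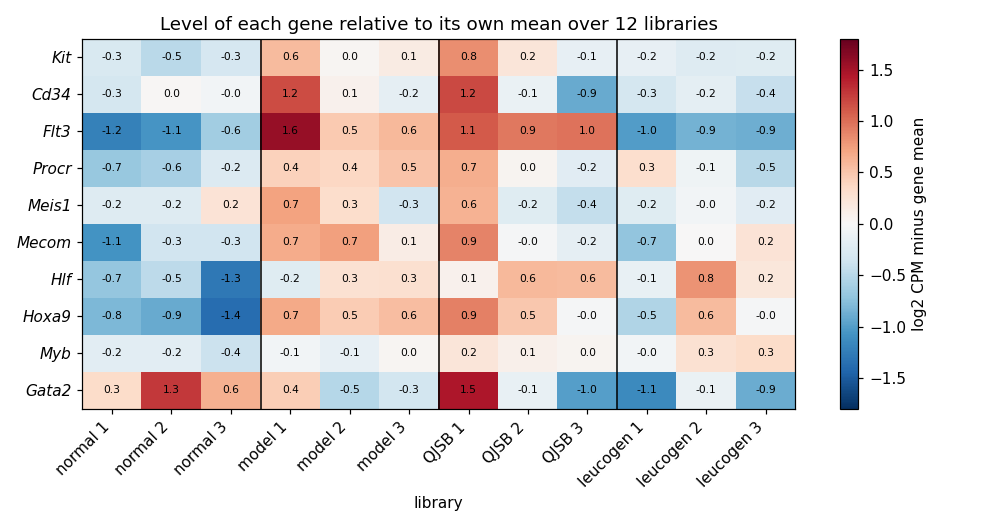
Level of each of the 10 genes (rows) in each library (columns) as log2 CPM minus the mean of that gene over the 12 libraries; red is above and blue below that mean. Model 1 and QJSB 1 share high Cd34 (1.2 each) and Meis1 (0.7 and 0.6), and Flt3 is below its mean in all normal and leucogen libraries.

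The second question was whether the granule changed these genes under cyclophosphamide. No member was called between QJSB and model by edgeR, where 0% of all 14486 genes were called in each direction (0% higher, 0% lower). At the study's cutoff, applied to edgeR's P values, 0 of the 10 passed, against 1.68% of all genes higher and 1.40% lower. None of the 10 had an unadjusted P under 0.05 at any fold, and DESeq2 called 0 of the 10 as well. With the replicate number as a block, a pairing that only the correlation of same-numbered libraries gives, 0 of the 10 and 18 of all genes were called. Without model 1 and QJSB 1, 0 of the 10 and 23 of all 14399 genes were called. The libraries did not overlap for 1 gene, Myb, against 9.80% of all genes.

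The intervals given for these genes come from the fit without pairs. Flt3 was 126, 112.5 and 115 CPM in QJSB, inside the range of model, and the log2 difference was 0.04 with a 95% interval of -0.60 to 0.68. The Flt3 difference was 0.47 without model 1 and 0.41 without model 1 and QJSB 1, and neither fit called it. Kit was 179.9, 117 and 90.9 CPM, with QJSB 1 above every model mouse and QJSB 3 below, and an interval of -0.52 to 0.68. Hoxa9 was 19.7, 14.6 and 10.2 CPM (interval -0.66 to 0.51) and Hlf 13.9, 19.7 and 19.6 CPM (interval -0.26 to 0.81). The narrowest interval was that of Myb, -0.20 to 0.52, where 689, 627 and 609.7 CPM in QJSB lay above all model mice. Between same-numbered mice, Hlf and Myb were higher and Meis1 was lower in QJSB in each of the 3 pairs by CPM. By FPKM, Myb was not higher in every pair. The share of all genes with a like sign in every pair was not computed, so this agreement is not read as a shift. With the pairs as a block, the log2 differences were 0.28 for Hlf, 0.16 for Myb and -0.25 for Meis1, and the adjusted p of the 10 genes ran from 0.618 to 0.95 (edgeR).

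The least certain were Cd34 and Gata2. Cd34 was 56.0, 22.6 and 13.0 CPM in QJSB, a 4.29-fold spread within the group, and its interval ran from -1.52 to 1.14. Gata2 was 11.3, 3.65 and 1.95 CPM, with QJSB 1 at 5.78 times QJSB 3, and its interval ran from -0.87 to 1.95. Meis1 at 31.6, 17.6 and 15.1 CPM, Mecom at 2.95, 1.505 and 1.34 CPM and Procr at 1.665, 1.04 and 0.853 CPM were also highest in QJSB 1. Without model 1 and QJSB 1, the log2 differences were -0.46 for Cd34, -0.12 for Gata2, -0.37 for Meis1, -0.62 for Mecom and -0.62 for Procr. In all, 9 of the 10 genes had their highest QJSB level in QJSB 1, Hlf being the exception, and 6 had their highest model level in model 1. The stromal sum of QJSB 1 was 605 CPM against 142 and 146 in the other QJSB libraries; the part of these cells in the 9 genes was not tested.

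**Figure D3:**
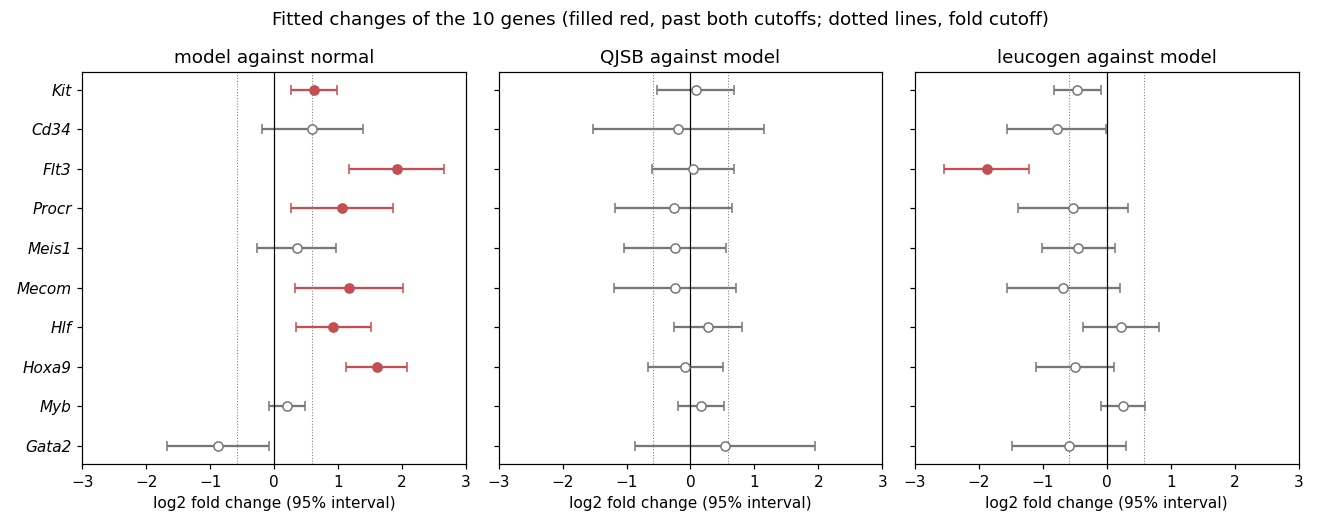
Log2 fold change (horizontal axis) of each gene with its 95% interval in model against normal, QJSB against model and leucogen against model, 3 mice per group; filled red points passed both cutoffs and dotted lines mark the 1.5-fold cutoff. The panels hold 6, 0 and 1 called genes.

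Leucogen under cyclophosphamide was compared with cyclophosphamide alone in the same way. Of the 10 genes, 1 was lower in leucogen than in model, Flt3, and 0 were higher, where 11.5% of all 14184 genes were lower and 11.6% higher. The libraries did not overlap for 4 of the 10 genes, against 46.0% of all genes. The median log2 fold change over the 10 genes was -0.51, and that over all genes tested was -0.05. Leaving out model 3 raised the count to 3, by adding Cd34 and Meis1. Without model 1 the count stayed at 1. Log2 differences in that fit were -0.15 for Meis1, -0.22 for Gata2, -0.42 for Hoxa9 and 0.09 for Hlf. Those of Procr, Mecom and Myb were -0.53, -0.59 and 0.26, and the median was not recomputed.

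Flt3 was 28.8, 32.2 and 31.5 CPM in leucogen, and each leucogen mouse was below each model mouse. It was 3.67-fold lower than in model (log2 -1.87 ± 0.29, adjusted p = 0.00501), and without model 1 the difference was -1.43 (adjusted p = 0.00263). Kit at 90.3, 85.4 and 86.7 CPM was below all model mice, but its log2 difference of -0.46 was under the fold cutoff (interval -0.83 to -0.10, adjusted p = 0.0619). Cd34 at 19.7, 21.8 and 18.3 CPM was also below all model mice, with a log2 difference of -0.78 (adjusted p = 0.118), and passed the study's unadjusted cutoff. Without model 1 the Kit and Cd34 differences were -0.27 and -0.25. Procr at 1.27, 0.943 and 0.672 CPM was below all model mice, Meis1 at 17.5, 19.8 and 17.8 CPM lay within the model range, and Mecom at 0.874, 1.52 and 1.82 CPM overlapped it. For the other genes the differences were -0.53 for Procr, -0.44 for Meis1, -0.68 for Mecom, 0.23 for Hlf, -0.50 for Hoxa9, 0.25 for Myb and -0.59 for Gata2 on the log2 scale, and none of these had an unadjusted P under 0.05. The leucogen marrow also differed in its neutrophil markers: promyelocyte markers summed to 3790 to 4910 CPM and late neutrophil markers to 49000 to 58700 CPM, against 4810 to 19900 CPM of the latter in model. Most of the late sum in leucogen was S100a8 and S100a9, at means of 25010 and 13770 CPM, against 4966 and 2767 in model. The part of these neutrophil cells in the Flt3 value was not tested.

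Each drug group was also set against normal, which measures what remained of the distance from untreated marrow. These comparisons share their controls with those above and are not independent of them. In QJSB, 4 of the 10 genes were higher than in normal (Flt3, Hoxa9, Hlf and Kit) and 0 lower, against 18.0% and 19.9% of 14817 genes, and 7 did not overlap, against 58.0%. Their log2 differences were 1.98 ± 0.17 for Flt3 (adjusted p = 0.000108), 1.55 ± 0.29 for Hoxa9 (adjusted p = 0.00377), 1.23 ± 0.26 for Hlf (adjusted p = 0.00651) and 0.73 ± 0.24 for Kit (adjusted p = 0.0387). The Kit call was lost when any single library other than QJSB 3 was left out, with library totals (adjusted p = 0.0551), and with limma-trend on log2(FPKM + 0.1) and log2(FPKM + 1) (adjusted p = 0.0919 and 0.138). Without QJSB 1 the Kit difference was 0.41, under the fold cutoff, and Gata2 was called lower at -1.33 (adjusted p = 0.0186), against -0.31 with that library.

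In leucogen, 2 genes were higher than in normal, Hlf and Hoxa9, and 1 was lower, Gata2, where 17.8% of 14637 genes were higher and 19.8% lower. The libraries did not overlap for 5 of the 10 genes, against 61.8% of all. Hlf was 12, 23.3 and 15.3 CPM, a rise of 2.24-fold (log2 1.16 ± 0.28, adjusted p = 0.00843), and Hoxa9 was 7.07, 15.4 and 10.3 CPM, a rise of 2.17-fold (log2 1.12 ± 0.28, adjusted p = 0.00839). Both were highest in leucogen 2. Gata2 was 1.75, 3.70 and 2.11 CPM, below all normal mice, and 2.75-fold lower (log2 -1.46 ± 0.34, adjusted p = 0.00499), a call that was lost with all 12 libraries in one fit (adjusted p = 0.0606). Flt3 differed from normal by 0.06 on the log2 scale (interval -0.28 to 0.39), an interval that lies within the fold cutoff in both directions. Myb, at 572, 711 and 739 CPM, was above all normal mice with an adjusted p of 0.00538, but its log2 difference of 0.46 was under the fold cutoff.

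The direct test between the drugs gave 1 gene of the 10, Flt3, which was 3.76-fold higher in QJSB than in leucogen (log2 1.91 ± 0.13, adjusted p = 0.00184). Among all 14266 genes, 12.9% were higher and 11.7% lower in QJSB. Kit and Flt3 were the 2 of the 10 whose libraries did not overlap, against 48.8% of all genes, and Kit differed by 0.54 on the log2 scale (interval 0.02 to 1.06, adjusted p = 0.105). Without QJSB 3, Kit passed as well (0.73, adjusted p = 0.0381). Hlf, Meis1 and Myb differed by 0.05, 0.20 and -0.09, with intervals of -0.55 to 0.66, -0.41 to 0.82 and -0.44 to 0.26.

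**Figure D4:**
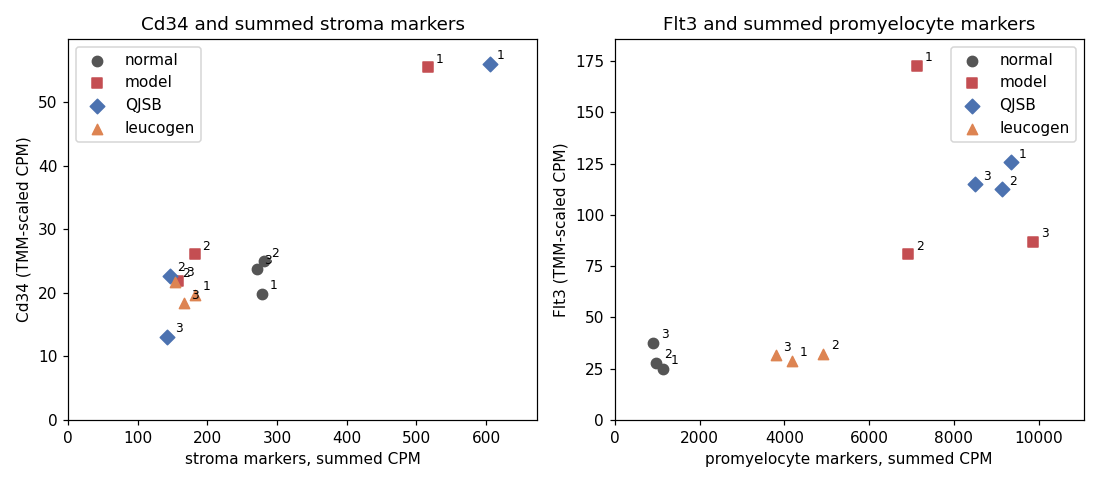
Cd34 against summed stromal markers (left) and Flt3 against summed promyelocyte markers (right), both in TMM-scaled CPM, 1 point per mouse with its replicate number. Model 1 and QJSB 1 lie apart at stromal sums of 517 and 605 CPM with Cd34 at 55.4 and 56.0, and the leucogen mice combine promyelocyte sums of 3790 to 4910 CPM with Flt3 of 28.8 to 32.2.

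The genes with the most similar pattern over the 12 libraries were found by the smallest root mean square difference of centred log2 CPM among 12745 named genes. For Flt3 the nearest was Fn1, fibronectin, at 0.271, where Flt3 itself varied with an SD of 0.984. For Hoxa9 the nearest were Tpi1 (0.248) and Smyd2 (0.255), for Hlf Pak1 (0.226) and Rilpl2 (0.228), and for Gata2 Phyhd1 (0.370) and Bag2 (0.390). Kit was nearest to Npepl1 (0.132) and Msto1 (0.143), Procr to Cd3eap (0.150) and Ptpmt1 (0.168), Meis1 to Plekha1 (0.198) and Mpeg1 (0.220), Mecom to Npff (0.237) and Zscan12 (0.287), and Myb to Phf20 (0.0855) and Bag4 (0.104). Cd34 was nearest to Cyp2j6 (0.237) and Smo (0.247), and it was the member with the fewest other genes, 6, nearer than its nearest member, Meis1 (0.296). For Flt3, 978 genes were nearer than Hoxa9, its nearest member, at 0.692.

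Other genes of the same circuits were read from lists, beginning with the partners of HOXA9 and MEIS1. In model against normal, 3 of 12 tested were higher and 4 lower, against 16.1% and 19.0% of all genes tested. Cdk6, a cyclin-dependent kinase of progenitor entry into cycle, rose by log2 1.84 (adjusted p = 0.000352), and Hoxa5 and Hoxa7, neighbours of Hoxa9 in the HOXA cluster, rose by 1.82 and 1.73 (adjusted p = 0.00173 and 0.00140). Pbx3, which codes for a DNA-binding partner of HOX and MEIS proteins, fell by 0.81, and Pknox1, a MEIS-related factor, fell by 0.74. Msi2, an RNA-binding protein of stem cells, fell by 0.68. Hoxa10 was too low to be tested. In leucogen against model, 2 of 12 tested were higher, among them Pbx2 (log2 0.67), and 2 were lower, Cdk6 and Msi2 (-0.73 and -0.88). The shares over all genes tested were 11.6% higher and 11.5% lower.

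The next list holds factors that act with GATA2 and MYB. In model against normal, 3 of 15 were higher and 4 lower, against 16.1% and 19.0% of all genes tested. Gfi1, a repressor of granulocytic progenitors, rose by log2 2.12 (adjusted p = 0.00461), Etv6 rose by 1.37 (adjusted p = 0.000106) and Erg rose by 0.78 (adjusted p = 0.00229), both ETS factors that stem cells need. Zfpm1, the cofactor of GATA1, fell by 3.97, and Tal1, a basic helix-loop-helix factor of stem and erythroid cells, fell by 3.70. Gfi1b, a repressor of the erythroid and megakaryocytic lineages, fell by 3.30, and Sox4 fell by 1.86. In leucogen against model, Erg and Runx1 were higher (log2 0.75 and 0.61), as were 11.6% of all genes tested.

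Of 14 tested genes among 16 listed for stem cells, 2 rose in model, Ly6a, which codes for SCA-1 (log2 1.09; adjusted p = 0.0371), and Hoxb4 (1.00; adjusted p = 0.00684). The 3 that fell were Mllt3 (-2.40), Ctnnal1 (-1.52) and Txnip (-0.78). Both counts were near the shares over all genes tested, 16.1% higher and 19.0% lower. The list's median was 0.09, against 0.77 for the 10 genes and 0.02 for all genes. Both the list and the 10 genes were chosen with earlier results known, so this contrast is descriptive. Slamf1, which codes for CD150, was at -0.83 (adjusted p = 0.0550) and Fgd5, a stem cell reporter gene, at 0.86 (adjusted p = 0.0587), and neither passed. In leucogen against model, 0 of 14 passed by edgeR, where 11.6% of all genes were higher and 11.5% lower. Of these 14, 2 had an unadjusted P under 0.05.

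Of 11 listed genes of multipotent and lymphoid-primed progenitors, 3 rose in model and 2 fell, against 16.1% and 19.0% of all genes tested. Those that rose act in myeloid cells: Csf2rb, the shared receptor chain of GM-CSF and related cytokines (log2 2.18, adjusted p = 0.00147), whose reads may be split with its close paralog Csf2rb2, Cebpa, a factor of granulocytic commitment (1.57; adjusted p = 0.000117), and Csf1r, the M-CSF receptor (0.81; adjusted p = 0.00273). Those that fell were Il7r, the interleukin 7 receptor of lymphoid progenitors (-3.58), and Satb1 (-0.85). In leucogen against model, 5 were lower, among them Dntt (-3.23), Cd27 (-1.20) and Csf1r (-0.98), and 1, Satb1, was higher (0.73). The shares over all genes there were 11.5% lower and 11.6% higher.

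Of 8 ligands and niche factors, 6 could be tested in model against normal and 1 passed, Il6, which fell by 2.68 (adjusted p = 0.00449). Il6 was near the floor, at a mean of 1.37 CPM in normal and 0.21 CPM in model. The paper reports that IL-6 protein in serum rose after cyclophosphamide, which is a different measure from marrow RNA. Of all genes tested, 19.0% fell and 16.1% rose. Kitl, which codes for the ligand of KIT, was at -0.27 (adjusted p = 0.516), and Flt3l, which codes for that of FLT3, at -0.73 (adjusted p = 0.0655). In QJSB against model, 0 of the 59 tested genes of these 5 lists passed by edgeR, and 2 had an unadjusted P under 0.05.

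The marker lists give the cells that could carry the same genes. Over all genes tested in model against normal, 16.1% rose and 19.0% fell. In model against normal, endothelial markers rose in 4 of 10, Egfl7 (log2 1.07), Tie1 (1.06), Stab2 (0.87) and Cdh5 (0.81), and stromal markers in 1 of 8, Pdgfrb (0.95). Promyelocyte markers rose in 7 of 8, among them Ctsg (3.66) and Mpo (3.22). Early B cell markers fell in 6 of 8, among them Cd79a (-5.53) and Pax5 (-5.31), dendritic cell markers in 4 of 8, among them Zbtb46 (-3.07), and proliferation genes in 5 of 12, among them Mki67 (-1.29). Megakaryocyte markers passed in 0 of 8 by edgeR, with 0 at an unadjusted P under 0.05. The parts of these cell types in the levels of the 10 genes were not tested.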

How the data were processed

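Total RNA of femoral bone marrow from 12 mice was depleted of ribosomal RNA and sequenced by the authors as strand-specific libraries. Reads were filtered by the authors with Seqtk, and mapping to GRCm38 (mm10) used Hisat2 2.0.4. The program that counted reads and its annotation are not given in the sources used here. The deposited table holds read counts without normalization, and the FPKM that the authors computed from them, for 34745 genes, and 0 of its sample columns were left unused. Its columns are headed Blank, Model, Positive and Stilbene. Except for Model, these headings are not the group names of the labels, and Blank was taken as normal, Positive as leucogen and Stilbene as QJSB. Under that reading, 298, 300 and 300 of the 300 mean normalized counts tabulated by the authors for each of their 3 comparisons were within 1% of those recomputed, so the assignment rests in part on values.

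Counts were tested in the groups compared with edgeR 4.0.16 in R 4.3.3 (TMM, filterByExpr, robust glmQLFit, glmQLFTest), with Benjamini-Hochberg adjustment over all genes tested. A call needed an adjusted p under 0.05 and a fold change over 1.5 in either direction. Fold changes are fitted values, intervals are 95%, and CPM are scaled by TMM factors over the 12 libraries. Same-numbered libraries of QJSB and model deviated together over 15310 genes (r = 0.426, 0.123 and 0.107), and the numbers were also tried as pairs there. Deviations from a group's mean cancel out within the group, so a likeness of model 1 and QJSB 1 alone also raises the other correlations. The values therefore do not establish pairs among the other libraries. This pairing comes from the correlations alone, as no label states a shared litter or batch. Pairs of libraries within a group differed by more than counting error (chi-square per degree of freedom of 10.2 to 99.6). The mice of a group are taken as separate animals from the methods.

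The 10 members and the gene lists were chosen with earlier results of these data known, and the late neutrophil list and the fits without both model 1 and QJSB 1 were added after the values had been seen. Named genes are the 10 members, at most 3 list genes per direction and list with the largest change among those called, any other list gene that a count needs, and for each member the 2 genes nearest in pattern, except 2 genes that are not reported here. Alternatives were DESeq2 1.42.0, its size factors in edgeR, library totals, no filter, a floor of 10 counts per library, a joint fit of the 12 libraries, a replicate block, limma 3.58.1 (limma-trend) on log2(FPKM + 0.1) and log2(FPKM + 1), and each library left out.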

Additional observations from a re-analysis of the deposited data

Results flagged for a closer look

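Flt3 was singled out because the effects of QJSB and of leucogen against the model group they share differed by a direct test. The log2 fold change of QJSB against leucogen was 1.91 ± 0.13 (SE, n = 3 per group; edgeR's quasi-likelihood test, adjusted p = 0.00184), and each QJSB mouse was higher than each leucogen mouse. Against model, Flt3 was at 0.04 in QJSB and at -1.87 in leucogen, and without model 1 at 0.47 and -1.43. The difference between the drugs was called under all 15 alternatives run, at 1.79 to 2.00 on the log2 scale. Promyelocyte markers summed to 8500 to 9340 CPM in QJSB and 3790 to 4910 CPM in leucogen, and late neutrophil markers to 7340 to 37700 CPM and 49000 to 58700 CPM. Their part in the difference was not tested.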

How the results depend on the processing

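The number of the 10 genes called in model against normal was 3 with limma-trend on log2(FPKM + 1) and 3 to 4 with a library left out, in place of 6. With a replicate block it was 4, Procr and Mecom being lost (adjusted p = 0.0965 and 0.0710), and the block changed no other call of the 10 genes. Outside QJSB and model, the correlations of same-numbered libraries were not all over 0.1 in any comparison. In QJSB against leucogen they were also all positive, at 0.181, 0.134 and 0.0782. DESeq2 also called 4. In leucogen against model, the count of 1 became 2 with library totals and with limma-trend on log2(FPKM + 0.1), Kit being added, and 1 to 3 with a library left out. In leucogen against normal, 3 became 0 with limma-trend on log2(FPKM + 1), where a pseudocount of that size compresses genes of low FPKM, and in QJSB against leucogen 1 became 1 to 2 with a library left out. With all 12 libraries in one fit, Gata2 was lost in leucogen against normal (adjusted p = 0.0606). The cause of these changes was not tested except where stated. Library totals moved the all-gene median of the log2 fold changes to 0.14 in model against normal, -0.22 in leucogen against model and 0.12 in QJSB against leucogen, from 0.02, -0.05 and 0.03.

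Of 896 member values under alternatives, 822 kept direction and side of the cutoffs, 36 lost a call, 7 gained one and 31 changed sign, none of the latter called. In QJSB against model, the values that changed sign were -0.0621 for Flt3 with library totals, -0.0437 and -0.0360 for Kit with limma-trend on log2(FPKM + 0.1) and log2(FPKM + 1), and -0.0747 for Kit and -0.1193 for Gata2 without model 1 and QJSB 1. With 1 library left out there, Kit ran from -0.2333 to 0.2856, Cd34 from -0.9647 to 0.3353, Flt3 from -0.1578 to 0.472, Meis1 from -0.6297 to 0.0371, Hoxa9 from -0.3352 to 0.1336 and Gata2 from -0.4679 to 0.9516. With 1 library left out of leucogen against model, Hlf ran from -0.0702 to 0.4288. In QJSB against normal, Cd34 ran from -0.3453 to 0.8059, Meis1 from -0.2564 to 0.3454 and Gata2 from -1.3302 to 0.0940. In leucogen against normal, Flt3 ran from -0.0631 to 0.2419 and Meis1 from -0.1606 to 0.0938. In QJSB against leucogen, Cd34 ran from -0.1886 to 0.9477, Procr from -0.0592 to 0.5197, Meis1 from -0.1922 to 0.3929 and Hlf from -0.1435 to 0.3547. Other sign changes with library totals were Flt3 in leucogen against normal (-0.0092) and Myb in QJSB against leucogen (0.0043).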
